A study of Mus musculus with 36 samples.

Results

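The genes described here are 6 genes of steroid hormone metabolism in the mouse liver: Cyp17a1, Hsd3b5, Hsd17b2, Hsd11b1, Akr1c6 and Srd5a1. A gene was measured where the array annotation gave a probe set to that symbol alone, and the brightest such probe set over all 36 samples stood for it. In practice 5 of the 6 genes had 1 such probe set each, and Srd5a1, the steroid ring A reductase that makes dihydrotestosterone, was not analysed here. These 5 are among 19938 genes with a probe set of their own and 13956 genes bright enough to be tested, and all 5 passed that brightness filter. The set was chosen by the measured diet difference of Cyp17a1, its high average level on high fat diet over all times, so the differences of that gene between the diets are given as a description, with no test. The other 4 are enzymes of the same pathway and were tested, but they too were named with earlier results of these data known, so their tests are not free of that selection.

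The samples were livers of C57BL/6J mice, an inbred laboratory strain, killed at 16 weeks of age. One group of mice ate a high fat diet with 60% of its calories from fat for 10 weeks, and the other ate normal chow. Both were housed in 12 h of light and 12 h of dark and ate at will, and livers were taken at intervals of 4 h over 1 day. A harvest time such as ZT4, in Zeitgeber time, lies 4 h after the lights came on, and the day began with ZT0 and ended with ZT20. There were 12 groups, 1 per diet at each of 6 times, with 3 samples in each, and every sample was measured on its own Affymetrix whole-transcript array, a chip whose probes cover the exons of each gene. The labels number the samples within a group without saying how the animals were kept apart, so p-values measure only the spread between these samples. Whole liver was used, in which fewer cells of a type and less RNA per cell cannot be told apart.

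Steroid hormones are made from cholesterol mainly in the adrenal gland and the gonads, and the liver takes them up, interconverts them and clears them. Oxidation and reduction at a few carbons switch a steroid between a form that binds its receptor strongly and one that binds it weakly, and hydroxylation, glucuronidation and sulfation then prepare it for excretion. In rodents many of the liver enzymes that do this differ between the sexes through the pattern of growth hormone secretion, and glucocorticoids in blood follow a daily cycle.

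The levels below are log2(intensity + 16), the log2 of the deposited array intensity after adding 16, and a difference is that of the means on this scale, high fat diet minus chow. A fold change is the antilog of the difference. It understates the change of a dim probe set. Levels of different genes come from different probes and are not set against each other. Calls were made at an adjusted p under 0.05 from limma, a linear model fitted to all tested genes together, with the Benjamini-Hochberg adjustment over the 13956 genes.

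Upstream sequence is shown for the 3 measured genes that the RefSeq promoter table holds, as the stretch of 250 bases before the listed start site. Coordinates and sequence are RefSeq's on GRCm38.p6, since no source used here names the build of the arrays. Capitals mark TGTTTA on either strand, the core recognised by the FOXA factors of liver, and each sequence runs 5′ to 3′ along the gene's strand.
Hsd3b5, chr3:98645535-98645784 (- strand): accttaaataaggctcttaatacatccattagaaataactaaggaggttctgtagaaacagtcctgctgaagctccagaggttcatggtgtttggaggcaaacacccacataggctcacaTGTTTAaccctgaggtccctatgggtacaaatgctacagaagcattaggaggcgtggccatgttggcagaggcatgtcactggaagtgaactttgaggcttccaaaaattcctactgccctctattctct
Hsd11b1, chr1:193242361-193242610 (- strand): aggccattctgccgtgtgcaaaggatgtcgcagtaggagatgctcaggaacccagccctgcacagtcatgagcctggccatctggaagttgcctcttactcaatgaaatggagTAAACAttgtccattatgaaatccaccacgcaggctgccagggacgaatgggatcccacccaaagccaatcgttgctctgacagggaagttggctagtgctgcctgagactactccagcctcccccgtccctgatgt
Akr1c6, chr13:4434093-4434342 (+ strand): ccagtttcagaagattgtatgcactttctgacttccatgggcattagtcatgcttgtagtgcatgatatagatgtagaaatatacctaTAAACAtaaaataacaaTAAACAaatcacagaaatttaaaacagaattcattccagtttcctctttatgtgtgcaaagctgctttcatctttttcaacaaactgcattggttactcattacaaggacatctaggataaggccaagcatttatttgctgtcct
Hsd3b5 and Hsd11b1 held 1 match each and Akr1c6 held 2. The match in Hsd3b5 begins 130 bases before the start site, that in Hsd11b1 137 bases before it, and those in Akr1c6 162 and 145 bases before it. TGTTTA was found in 12.0% of the 32851 promoter windows of this length. The other 5 motifs searched on both strands had no match in these 3 windows, which says only that the letters are not there. They were the E-box CACGTG (found in 6.0% of all windows), the D-box TTANGTAA (2.1%), the nuclear receptor half-site AGGTCA (14.0%), the glucocorticoid receptor half-site AGAACA (16.1%) and the STAT site TTCNNNGAA (7.0%). The Hsd11b1 window lies inside the annotated span of that gene (chromosome 1, 193221640 to 193264045), before an internal start site. The last bases of the Akr1c6 window, which ends at 4434342, also lie inside the annotated span of Akr1c6, which begins at 4434311. RefSeq places Cyp17a1 on chromosome 19 at 46667165 to 46673000, Hsd17b2 on chromosome 8 at 117700982 to 117759030, Hsd3b5 on chromosome 3 at 98618636 to 98645534 and Akr1c6 on chromosome 13 at 4434311 to 4457530.

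Cyp17a1, which carries out the step from pregnane steroids towards androgens, was 1.53 ± 0.16 (SE) higher on high fat diet on average over the 6 times, a 2.89-fold difference. Its log2 level averaged 9.89 ± 0.91 on high fat diet and 8.36 ± 0.42 on chow (SD, n = 18 each). This was the 11th highest difference of all tested genes, and it was positive at 6 of 6 times. A positive difference at every time was found for 7.62% of tested genes, and since Cyp17a1 was chosen for this contrast nothing is read from that share.

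Sample by sample, Cyp17a1 had log2 levels of 9.99, 9.69 and 7.98 at ZT0 on high fat diet, against 7.63, 8.81 and 8.40 on chow. At ZT4 the samples stood at 10.58, 9.69 and 9.84 on high fat diet and at 7.81, 8.47 and 7.96 on chow. At ZT8 they stood at 8.59, 8.41 and 9.31 on high fat diet and at 8.07, 8.03 and 8.38 on chow. The third high fat sample of ZT0 lay below 2 of the 3 chow samples of that time, so the diets overlapped at ZT0, while at ZT4 and ZT8 they did not. At ZT12 the levels were 10.59, 10.01 and 11.30 on high fat diet and 8.06, 8.10 and 8.34 on chow. At ZT16 they were 10.71, 11.05 and 10.56 on high fat diet and 9.05, 8.48 and 8.43 on chow, and at ZT20 they were 9.33, 9.92 and 10.41 on high fat diet and 8.80, 8.34 and 9.25 on chow. All 3 high fat samples therefore lay above all 3 chow samples at 5 of the 6 times. A separation of that kind at 5 or more times was found in 0.960% of tested genes. Nothing is read from that share either, since Cyp17a1 was chosen for this contrast.

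The size of the Cyp17a1 difference varied over the day, from 0.61 at ZT8 (1.52-fold) to 2.47 at ZT12 (5.54-fold), each with an SE of 0.39. Between these lay 0.94 at ZT0, 1.09 at ZT20, 1.96 at ZT4 and 2.12 at ZT16. The ZT0 difference leaned on single samples. It was 1.56 without the third high fat sample, 0.55 without the first high fat sample and 0.62 without the first chow sample. The ZT8 difference was 0.34 without the third high fat sample of that time. The test that the difference was equal at all 6 times gave an adjusted p of 0.212 in limma (0.00901 before adjustment), so a change of the difference over the day was not called. Fitting with array weights, which give noisy arrays less influence, brought the adjusted p to 0.0177. With those weights the call was made for 1862 genes, against 88 (0.631% of tested genes) without them. The lower adjusted p is thus not particular to Cyp17a1.

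**Figure D1:**
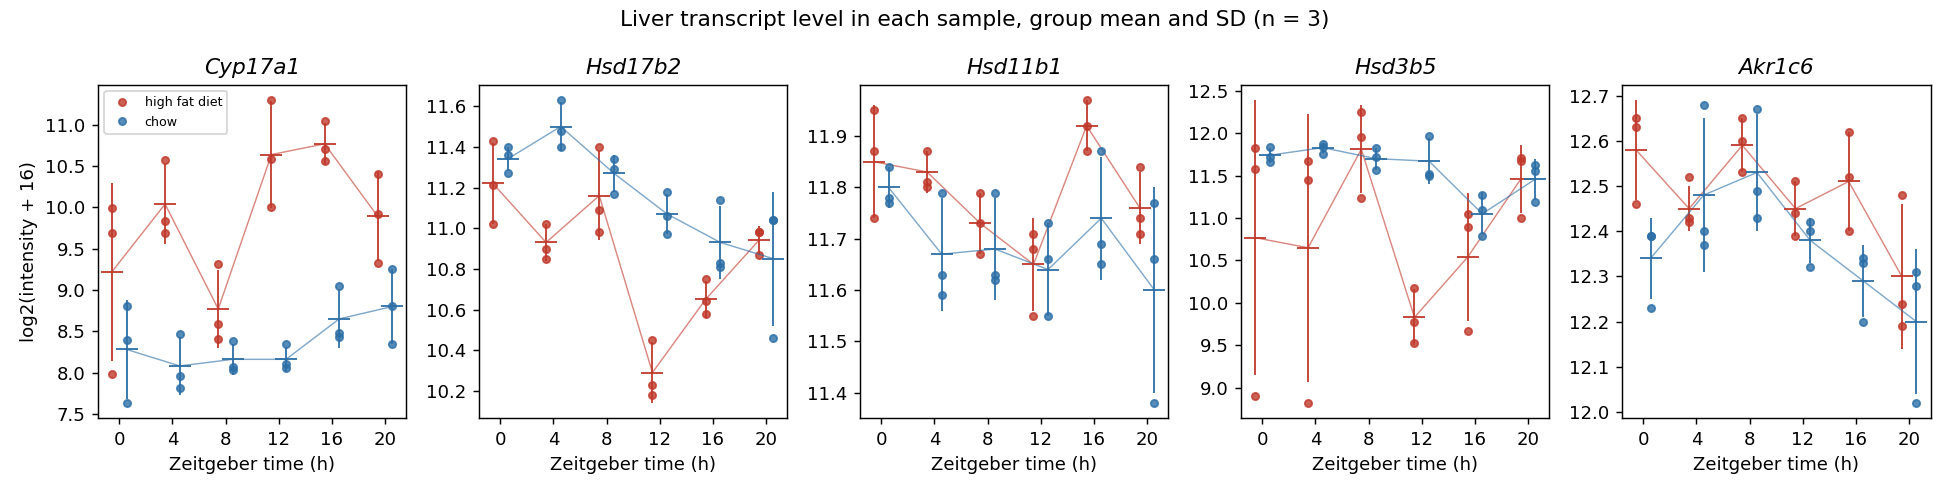
Log2(intensity + 16) of Cyp17a1, Hsd17b2, Hsd11b1, Hsd3b5 and Akr1c6 in each of the 36 samples (points) against Zeitgeber time in hours, high fat diet in red and chow in blue, with horizontal ticks at the group means, vertical bars of 1 SD (n = 3) and thin lines joining the means. The vertical scale differs between panels. Cyp17a1 on high fat diet stands above chow at every time except for 1 sample at ZT0, and Hsd3b5 on high fat diet spreads from 8.82 to 12.25 while chow samples lie between 10.79 and 11.97.

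For Cyp17a1 a 24 h rhythm was called on high fat diet (limma F test, adjusted p = 0.0492). Its amplitude (mean to peak) was 0.67 and its fitted peak lay at ZT15.5. On chow the fitted amplitude was 0.35 with a peak at ZT18.5, and the rhythm was not called (adjusted p = 0.393). Rhythms were called for 11.0% of tested genes on high fat diet and 20.6% on chow. The rhythm itself was not shown to differ between the diets (adjusted p = 0.763), a call made for 0.0287% of tested genes. The call on high fat diet sat at the threshold and was lost when any of 27 of the 36 samples was left out, with an adjusted p between 0.00597 and 0.127. It was also lost without the filter on dim genes (adjusted p = 0.0634), with an offset of 1 in place of 16 (0.0559) and with the replicate number as a block (0.0609). A test of any difference among the 6 times, without a wave shape, gave an adjusted p of 0.00135 on high fat diet and 0.521 on chow, where 16.8% and 21.0% of tested genes passed. The spread between samples of a group was 0.63 (SD) on high fat diet and 0.38 on chow. Both kinds of test used 1 spread for both diets, which was 0.47 in the test without a wave shape. The p-values on high fat diet may therefore be too low.

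In the order of its 12 group means, Cyp17a1 was highest on high fat diet at ZT16 (10.77) and ZT12 (10.64), followed by high fat diet at ZT4 (10.04), ZT20 (9.89) and ZT0 (9.22). Chow at ZT20 (8.80) came next, just above high fat diet at ZT8 (8.77). The other chow groups ran from 8.65 at ZT16 down to 8.08 at ZT4. All 11 pairs of neighbours in this order had overlapping samples. The lowest group on high fat diet, ZT8, thus lay within the range of the chow groups.

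Hsd3b5 belongs to the beta-hydroxysteroid dehydrogenase family. In the mouse it works mainly as an NADPH-dependent reductase of ketosteroids in male liver, and so inactivates androgens such as dihydrotestosterone. It fell by 0.73 ± 0.22 (SE) on average on high fat diet, a 1.66-fold difference with an adjusted p of 0.0162 in limma. Its log2 level averaged 10.84 ± 1.08 on high fat diet and 11.57 ± 0.31 on chow (SD, n = 18 each), and it was lower at 5 of 6 times. Of all tested genes, 9.80% were called lower and 11.3% higher on high fat diet.

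The fall of Hsd3b5 was uneven between samples of the same group. At ZT0 the high fat samples had log2 levels of 8.90, 11.58 and 11.83, and the chow samples 11.84, 11.72 and 11.66. At ZT4 the high fat samples had 8.82, 11.67 and 11.45, and the chow samples 11.84, 11.87 and 11.76. At each of these times 1 high fat sample lay far below and the other 2 lay near chow. At ZT12 all 3 high fat samples were low, at 10.18, 9.77 and 9.53, against 11.52, 11.97 and 11.50 on chow. At ZT16 the levels were 11.05, 9.67 and 10.90 on high fat diet and 10.79, 11.10 and 11.27 on chow. The diets overlapped at ZT16, as they did at ZT8 (11.95, 12.25 and 11.24 on high fat diet, 11.72, 11.83 and 11.57 on chow) and at ZT20 (11.71, 11.67 and 11.00 on high fat diet, 11.56, 11.62 and 11.19 on chow). All high fat samples lay below all chow samples at ZT4 and ZT12, and separation downwards at 2 or more times was found in 13.6% of tested genes.

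Among single times Hsd3b5 was called lower at ZT12, where the difference was -1.84 ± 0.54 (SE), a 3.57-fold fall with an adjusted p of 0.0399 in limma. At ZT12, 5.43% of tested genes were called in either direction. That call was lost without any 1 of the 6 samples of ZT12, with an adjusted p of up to 0.171, and the average fall without the ZT12 groups was -0.51 with an adjusted p of 0.204. The other times gave differences of -0.97 at ZT0, -1.18 at ZT4, 0.11 at ZT8, -0.51 at ZT16 and -0.00 at ZT20, with adjusted p-values from 0.251 to 1.000. Several of these rested on 1 sample. The difference at ZT0 was -0.03 without the first high fat sample of that time and -1.50 without the third. The difference at ZT4 was -0.27 without the first high fat sample, and that at ZT16 was -0.08 without the second high fat sample. The share of all tested genes called was 7.12% at ZT0, 0.774% at ZT8, 2.22% at ZT16 and 2.04% at ZT20, and these shares themselves depended on single samples. With each sample left out in turn, the count of called genes ran from 270 to 1143 at ZT0 (993 with all samples), from 258 to 612 at ZT4 (522), from 54 to 129 at ZT8 (108), from 291 to 854 at ZT12 (758), from 96 to 363 at ZT16 (310) and from 121 to 338 at ZT20 (285). Equality of the difference over the day gave an adjusted p of 0.485. The spread between samples of a group was 1.02 (SD) on high fat diet and 0.19 on chow. A 24 h rhythm was not called on high fat diet (adjusted p = 0.752) or on chow (adjusted p = 0.642). Both fits put the peak early in the day, at ZT1.7 on high fat diet and ZT4.6 on chow. Group means on chow ran from 11.05 at ZT16 to 11.83 at ZT4. The rhythm test used 1 spread for both diets, so the wide spread on high fat diet entered the test on chow. The missing call on chow therefore does not show that a rhythm was absent there. Rhythm was not tested with the chow spread alone.

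Near-identical copies make the Hsd3b genes hard to tell apart by hybridisation. The 2 further probe sets that list Hsd3b5 also list other genes, 3 in all, and hold the same values as each other. Their difference was -0.49 ± 0.17 (SE, limma adjusted p = 0.0412), and over the 36 samples their levels correlated with those of the Hsd3b5 probe set at r = 0.97. Among the other Hsd3b genes with a probe set of their own, Hsd3b2 averaged 10.84 ± 0.24 on high fat diet and 10.81 ± 0.17 on chow (SD, n = 18 each). Hsd3b3 averaged 11.87 ± 0.18 on high fat diet and 11.86 ± 0.11 on chow, and Hsd3b6 averaged 7.42 ± 0.27 on high fat diet and 7.23 ± 0.34 on chow. None of these 3 differences was called by limma, with adjusted p-values of 0.827 for Hsd3b2, 0.905 for Hsd3b3 and 0.121 for Hsd3b6. Hsd3b6, with a difference of 0.18, has an unadjusted p under 0.05.

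Hsd17b2 oxidises estradiol to estrone and testosterone to androstenedione, which lowers the level of active sex steroid. It fell by 0.29 ± 0.05 (SE) on high fat diet, a 1.23-fold difference with an adjusted p of 8.46e-05 in limma. Its log2 level averaged 10.86 ± 0.35 on high fat diet and 11.16 ± 0.28 on chow (SD, n = 18 each), and it was lower at 5 of 6 times. At ZT4 the high fat samples stood at 10.90, 11.02 and 10.85, against 11.48, 11.40 and 11.63 on chow. At ZT12 they stood at 10.23, 10.45 and 10.18, against 10.97, 11.18 and 11.06 on chow. At ZT16 they stood at 10.64, 10.58 and 10.75, against 10.81, 10.83 and 11.14 on chow. These are the 3 times at which every high fat sample lay below every chow sample, and separation downwards at 3 or more times was found in 5.61% of tested genes.

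The fall of Hsd17b2 was called at ZT4, at -0.58 ± 0.13 (SE, limma adjusted p = 0.00659), and at ZT12, at -0.78 ± 0.13 (adjusted p = 0.000226). At ZT4, 3.74% of tested genes were called. The differences at the remaining times were -0.12 at ZT0, -0.11 at ZT8, -0.27 at ZT16 and 0.10 at ZT20, with adjusted p-values from 0.347 to 0.840. At these times other than ZT16 the diets overlapped. At ZT0 the high fat samples had 11.02, 11.21 and 11.43 and the chow samples 11.36, 11.27 and 11.40. At ZT8 they had 11.09, 11.40 and 10.98 on high fat diet and 11.17, 11.29 and 11.34 on chow, and at ZT20 10.98, 10.98 and 10.87 on high fat diet and 11.04, 11.04 and 10.46 on chow. The difference changed over the day (limma F test, adjusted p = 0.0470), a call made for 0.631% of tested genes. It is the weakest of the calls for this gene, since leaving out 1 sample ended it for 27 of the 36 samples, with an adjusted p between 0.0248 and 0.117.

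Hsd17b2 had a called 24 h rhythm on both diets. On high fat diet its amplitude was 0.35 with a fitted peak at ZT1.6 (limma adjusted p = 0.00178), and on chow its amplitude was 0.31 with a fitted peak at ZT4.5 (adjusted p = 0.00373). The fitted peak was 2.9 h earlier on high fat diet. The test of the difference in rhythm gave an adjusted p of 0.599 in limma (0.0489 before adjustment), so the shift was not called. The group means on high fat diet ran from 11.22 at ZT0 to a low of 10.29 at ZT12, and those on chow from 11.50 at ZT4 to a low of 10.85 at ZT20. In the order of all 12 group means, 9 of 11 neighbouring pairs overlapped. The exceptions were the top pair, chow at ZT4 and chow at ZT0, and the bottom pair, high fat diet at ZT16 and high fat diet at ZT12.

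**Figure D2:**
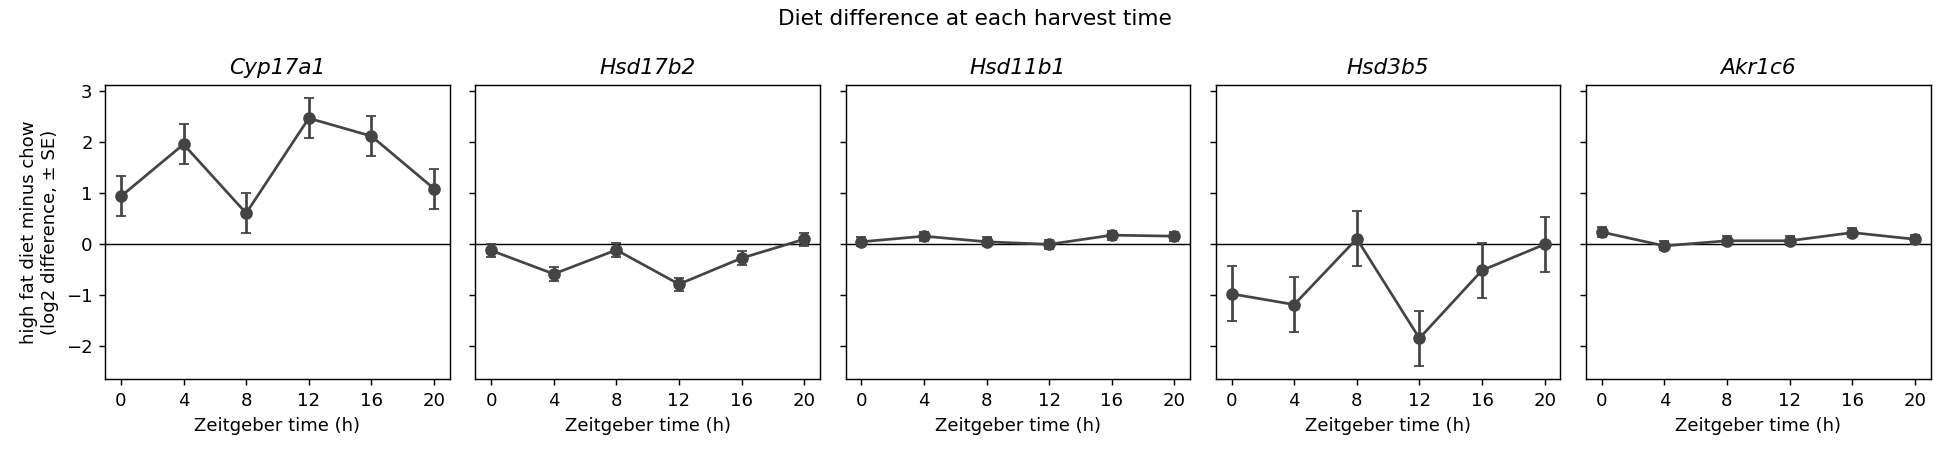
Difference in log2(intensity + 16), high fat diet minus chow, against Zeitgeber time in hours for the 5 measured genes, with bars of 1 SE from the fit over all genes and a line at 0. Cyp17a1 is above 0 at every time, with 2.47 at ZT12, where Hsd17b2 (-0.78) and Hsd3b5 (-1.84) have their lowest differences, while Hsd11b1 and Akr1c6 stay between -0.03 and 0.24.

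Hsd11b1 makes active corticosterone from inert dehydrocorticosterone inside the liver cell, using NADPH from the neighbouring enzyme H6pd. It rose by 0.10 ± 0.04 (SE) on high fat diet, a 1.07-fold difference with an adjusted p of 0.0382 in limma. Its log2 level averaged 11.79 ± 0.11 on high fat diet and 11.69 ± 0.12 on chow (SD, n = 18 each). The 18 high fat samples had a lowest level of 11.55, a median of 11.80 and a highest of 11.97, against 11.38, 11.68 and 11.87 on chow. The diets thus overlapped widely, although the difference was positive or 0.00 at each time.

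The difference of Hsd11b1 ran from 0.00 at ZT12 to 0.18 at ZT16, each with an SE of 0.09, and adjusted p-values at single times lay between 0.358 and 0.990. At ZT4 alone all high fat samples (11.87, 11.80 and 11.81) lay above all chow samples (11.63, 11.59 and 11.79), and separation upwards at 1 or more times was found in 39.8% of tested genes. The average rise was small and its call fragile. It was lost when any of 19 of the 36 samples was left out and after median centring of the arrays, which gave 0.06 with an adjusted p of 0.326. No rhythm was called on high fat diet (adjusted p = 0.550) or on chow (adjusted p = 0.877), and group means spanned 11.65 to 11.92 on high fat diet and 11.60 to 11.80 on chow. Hsd11b2, which runs the reverse reaction in kidney, had a difference of 0.07 ± 0.06 (adjusted p = 0.463), and H6pd one of -0.07 ± 0.04 (adjusted p = 0.255).

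Akr1c6 is an aldo-keto reductase that in the mouse interconverts ketosteroids and hydroxysteroids such as estrone and estradiol. It rose by 0.11 ± 0.04 (SE) on high fat diet, with an adjusted p of 0.0325 in limma. Its log2 level averaged 12.48 ± 0.13 on high fat diet and 12.37 ± 0.15 on chow (SD, n = 18 each), and it was higher at 5 of 6 times. The lowest, median and highest samples were 12.19, 12.49 and 12.65 on high fat diet and 12.02, 12.38 and 12.68 on chow. The highest sample of all was thus on chow.

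The Akr1c6 difference was largest at ZT0, at 0.24 ± 0.09 (SE, limma adjusted p = 0.107), and at ZT16, at 0.23 (adjusted p = 0.259). At ZT0 the high fat samples had 12.46, 12.65 and 12.63, against 12.39, 12.39 and 12.23 on chow. At ZT16 they had 12.40, 12.52 and 12.62, against 12.34, 12.20 and 12.33 on chow. At these times the diets did not overlap, and separation upwards at 2 or more times was found in 14.7% of tested genes. The other differences lay between -0.03 at ZT4 and 0.10 at ZT20, with adjusted p-values of 0.699 or more. As with Hsd11b1, the call for the average depended on single samples (12 of 36 ended it) and on scaling, with 0.07 and an adjusted p of 0.251 after median centring. On chow Akr1c6 had a called rhythm with an amplitude of 0.16 and a peak at ZT6.9 (adjusted p = 0.0160). That call was lost in the limma F test among the 6 times (adjusted p = 0.0629) and with added 12 h waves (0.0910). On high fat diet a rhythm was not called (adjusted p = 0.559), and the difference in rhythm was not shown (adjusted p = 0.824).

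Of the genes tested for an average diet difference, 4 of 4 were called, 2 higher and 2 lower. Over all tested genes 21.1% were called in either direction, and since the 4 were named with earlier results known, nothing is read from the comparison of these shares. The median difference over the 5 measured genes was 0.10, against 0.02 over all tested genes. Cyp17a1, by whose difference the set was chosen, is among the 5, so nothing is read from these medians. Over the 12 group means, Cyp17a1 correlated at r = -0.81 with Hsd17b2 and at r = -0.84 with Hsd3b5, and Hsd17b2 correlated at r = 0.81 with Hsd3b5. These are descriptions over 12 groups that share the diet contrast.

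Samples of the same diet and time were compared next, with each gene's group mean taken away so that neither diet nor time enters. These comparisons were chosen after the data were seen, and 20 correlations were computed, 10 pairs of genes on each diet, each over 18 samples. P-values are exact and two-sided, from all 46656 rearrangements of samples within their groups. On high fat diet, samples with more Cyp17a1 than their group had less Hsd17b2, with r = -0.80 (permutation p = 0.00221, Benjamini-Hochberg adjusted p = 0.0416) and rho = -0.81 (permutation p = 0.00201, adjusted p = 0.0362). Without the 2 samples farthest from the median of Cyp17a1, r was -0.70. Without the 2 farthest from the median of Hsd17b2, r was -0.76. On chow the same pair gave r = -0.51 and rho = -0.45, with permutation p-values of 0.0979 and 0.124 (adjusted 0.218 and 0.275). There r was -0.58 without the 2 samples farthest in Cyp17a1 and -0.36 without the 2 farthest in Hsd17b2. Whether the relation differs between the diets was not tested.

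Cyp17a1 and Hsd3b5 also ran opposite within groups. On high fat diet r was -0.68 (exact permutation p = 0.0122, adjusted p = 0.0532) and rho was -0.67 (permutation p = 0.00716, adjusted p = 0.0477), and r was -0.56 without the 2 samples farthest in Cyp17a1. Without the 2 farthest in Hsd3b5, r was -0.59. On chow r was -0.58 (permutation p = 0.0133, adjusted p = 0.0532) and rho was -0.59 (permutation p = 0.0171, adjusted p = 0.0685). There r was -0.65 without the 2 farthest in Cyp17a1 and -0.57 without the 2 farthest in Hsd3b5. Only rho on high fat diet passed the adjustment for this pair. Hsd11b1 and Akr1c6 deviated together on chow, with r = 0.81 (permutation p = 0.00416, adjusted p = 0.0416) and rho = 0.76 (permutation p = 0.00362, adjusted p = 0.0362). There r was 0.77 without the 2 samples farthest in Hsd11b1 and 0.73 without the 2 farthest in Akr1c6. On high fat diet that pair had r = 0.07 and rho = 0.06 (permutation p = 0.816 and 0.857, adjusted 0.859 and 0.902). Its r was 0.39 without the 2 farthest in Hsd11b1 and 0.08 without the 2 farthest in Akr1c6. The points of a plot share an array, so brightness of a whole array enters both axes, and its part was not tested.

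**Figure D3:**
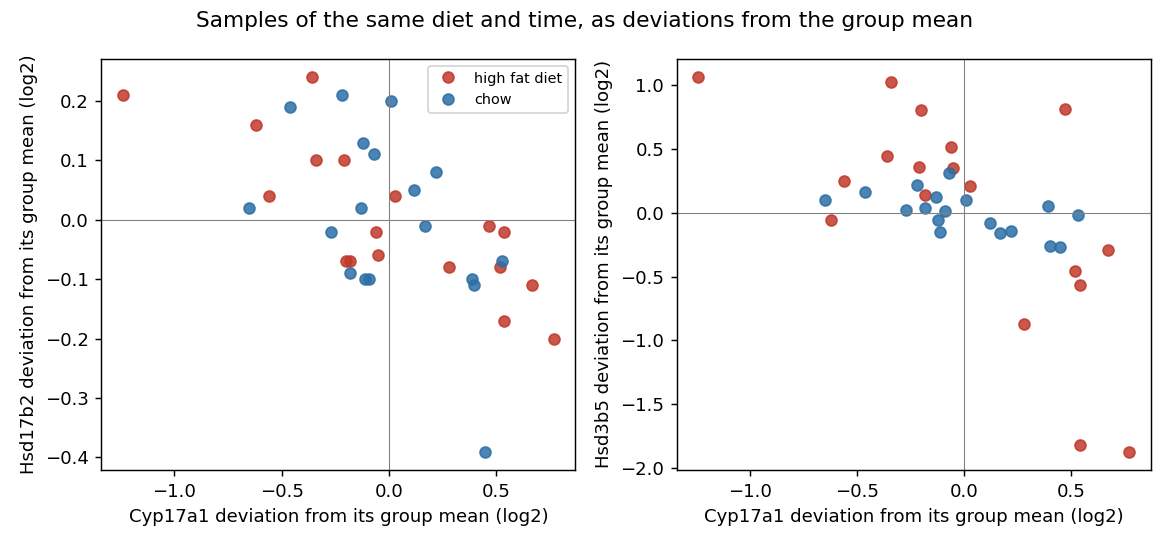
Deviation of each sample from the mean of its diet and time group, in log2 units, for Cyp17a1 on the horizontal axes and for Hsd17b2 (left) and Hsd3b5 (right) on the vertical axes, with high fat diet in red and chow in blue (18 samples each). Samples with more Cyp17a1 lie lower on both vertical axes, with r of -0.80 on high fat diet and -0.51 on chow for Hsd17b2, and of -0.68 on high fat diet and -0.58 on chow for Hsd3b5.

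The tested genes whose 12 group means were most like those of each gene were listed by Pearson correlation, as a description. For Cyp17a1 they were Paqr3 (0.970), a Golgi membrane protein, Fads1 (0.960), a fatty acid desaturase, and the cytochrome P450 Cyp2b9 (0.951). For Hsd3b5 they were 1300017J02Rik (0.956), Vtn (0.952), which encodes vitronectin, and Sbf1 (0.927). Hsd17b2 was most like Rps6kc1 (0.947), Cnp (0.945) and Khsrp (0.920), an RNA-binding protein. The closest to Hsd11b1 were Man1a (0.908), Ldah (0.907) and Siah2 (0.899), and the closest to Akr1c6 were the coagulation factor gene F5 (0.952), Pmm2 (0.946) and Stx8 (0.943). Paqr3 itself had a difference of 0.47 ± 0.04 and Fads1 one of 0.24 ± 0.04 (SE). Both were picked for their likeness to Cyp17a1, which was chosen for its diet difference. Their own differences are therefore given without a test.

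The genes around these enzymes were read from lists that cover steroid synthesis, other hydroxysteroid dehydrogenases, ring A and aldo-keto reductases, hydroxylation, conjugation, cofactor supply, receptors and carriers, and glucocorticoid targets. The counts of these lists, and of the sex-biased genes and cell type markers below, stand beside shares over all tested genes. Of these, 11.3% were called higher and 9.80% lower on high fat diet. The lists were written with earlier results known, so nothing is read from the counts against these shares. Genes of the early steps of steroid synthesis were dim. Of the 15 listed, 4 were tested, 7 lay below the brightness filter at a mean log2 level of 6.11, and 4 were not analysed here. Star, which moves cholesterol into mitochondria, had levels of 5.36 to 5.92 on high fat diet and 5.44 to 6.00 on chow. Cyp11a1, which cleaves the cholesterol side chain, had 5.15 to 5.51 on high fat diet and 4.92 to 5.42 on chow. Of the 4 tested, limma called 0 in either direction, and 1, Hsd3b6, had an unadjusted p under 0.05. Their median difference was 0.02.

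Among the other hydroxysteroid dehydrogenases, 6 of 16 tested genes rose and 1 fell, with a median difference of 0.12. Hsd17b10, a mitochondrial dehydrogenase, rose by 0.34 ± 0.04 (SE, limma adjusted p = 9.82e-08), and Rdh9, a retinol dehydrogenase that also oxidises steroids, rose by 0.41 ± 0.06 (adjusted p = 6.61e-06). Hsd17b4, an enzyme of peroxisomal fatty acid oxidation, rose by 0.18 ± 0.03 (adjusted p = 0.000109), and smaller rises were called for Hsd17b12 (0.14), Hsd3b7 (0.12) and Hsdl2 (0.21). Dhrs9 fell by 0.50 ± 0.09 (adjusted p = 8.26e-05). Hsd17b4 and Hsd17b12 are better known for fatty acid metabolism than for steroids, and Hsd3b7 for bile acid synthesis. The called Hsd17b genes of this list were higher on high fat diet, while Hsd17b2 was lower, and Hsd17b6, Hsd17b7, Hsd17b11, Hsd17b13 and Hsd17b14 were not called (differences of -0.11 to 0.11).

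Of the 7 tested ring A and aldo-keto reductases, 1 rose and 3 fell, with a median of -0.09. Akr1c20 rose by 0.34 ± 0.04 (SE, limma adjusted p = 3.63e-08), while Akr1c19 fell by 0.65 ± 0.05 (adjusted p = 1.14e-10), Akr1c13 by 0.24 ± 0.05 (adjusted p = 0.00021) and Akr1c14 by 0.17 ± 0.04 (adjusted p = 0.00353). Akr1c6 and its relatives therefore moved in both directions. The Akr1c genes lie close in sequence and their probe sets may share signal, which was not measured here. Srd5a3, a relative of Srd5a1 that works on polyprenols, had a difference of 0.03 ± 0.06 (adjusted p = 0.814). Akr1d1, which reduces ring A in the other orientation, had one of 0.11 ± 0.05 (adjusted p = 0.0949).

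The steroid hydroxylases held the largest differences of these lists. Of 6 tested, 1 rose and 4 fell. Cyp2b9 rose by 3.88 ± 0.39 (SE, limma adjusted p = 9.16e-09). Cyp2b10, a relative with similar sequence, fell by 3.16 ± 0.14 (adjusted p = 1.18e-16), Cyp3a11 by 0.92 ± 0.07 (adjusted p = 9.04e-11), Cyp7b1 by 0.76 ± 0.13 (adjusted p = 0.0001) and Cyp2c29 by 0.58 ± 0.06 (adjusted p = 1.54e-08). Most of these enzymes also clear drugs, and Cyp7b1 also works in bile acid synthesis. Of 8 tested genes of conjugation, 6 fell and 0 rose, with a median of -0.31, and 0 were higher at an unadjusted p under 0.05. All 6 were Ugt2b glucuronosyltransferases. Ugt2b35 fell by 0.42 ± 0.05 (adjusted p = 4.81e-08), Ugt2b38 by 0.42 ± 0.06 (adjusted p = 3.6e-06) and Ugt2b1 by 0.33 ± 0.05 (adjusted p = 7.17e-06), while Ugt2b36 had a difference of -0.01 and the sulfotransferase Sult2a8 one of 0.04.

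**Figure D4:**
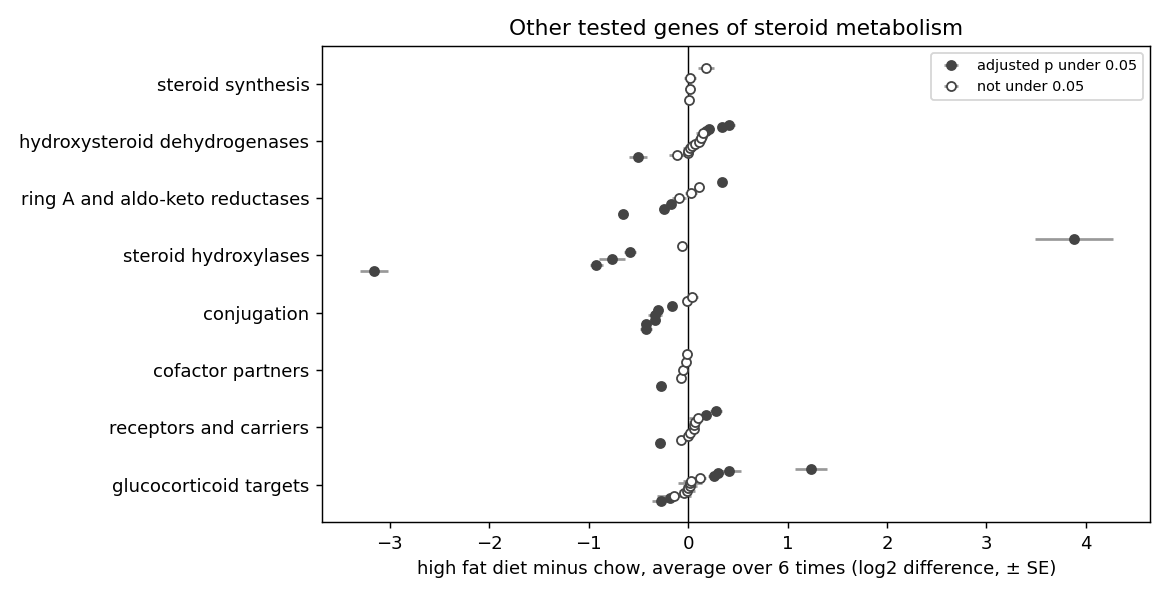
Average log2 difference, high fat diet minus chow, of each tested gene in 8 lists of steroid metabolism, with bars of 1 SE from the fit over all genes. Filled points passed an adjusted p of 0.05. Steroid hydroxylases spread from -3.16 (Cyp2b10) to 3.88 (Cyp2b9), filled conjugation genes lie below 0, and filled hydroxysteroid dehydrogenases lie above 0 except Dhrs9.

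Of 5 tested electron donors and cofactor suppliers 1 fell, the ferredoxin gene Fdx1 of mitochondrial P450 enzymes, by 0.27 ± 0.05 (SE, limma adjusted p = 4.7e-05), and 0 rose, with none higher at an unadjusted p under 0.05. Cyb5a, the cytochrome that assists the lyase step of Cyp17a1, had a difference of -0.02 ± 0.04 (adjusted p = 0.714). Among 10 tested receptors and carriers, 2 rose and 1 fell. Serpina6, the corticosteroid-binding globulin that the liver secretes, rose by 0.28 ± 0.06 (adjusted p = 0.00122), Pgrmc2, a haem-binding membrane protein, rose by 0.18 ± 0.05 (adjusted p = 0.0114), and the estrogen receptor Esr1 fell by 0.28 ± 0.05 (adjusted p = 0.000118). The glucocorticoid receptor Nr3c1 had a difference of 0.06 ± 0.03 (adjusted p = 0.176).

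Of 14 tested glucocorticoid targets, 4 rose and 2 fell, with a median of 0.02. Lcn2, which inflammation also induces, rose by 1.24 ± 0.16 (SE, limma adjusted p = 1.07e-06), the gluconeogenic G6pc by 0.30 ± 0.06 (adjusted p = 0.000281) and Tsc22d3, also called GILZ, by 0.26 ± 0.06 (adjusted p = 0.00165). Tat, an enzyme of tyrosine breakdown, fell by 0.18 ± 0.04 (adjusted p = 0.00252). The classic target Fkbp5 had a difference of 0.12 ± 0.06 (adjusted p = 0.166) and the clock gene Per1 one of 0.03 ± 0.08 (adjusted p = 0.853). Called rhythms were counted for 6 of these 14 genes on high fat diet and 8 on chow, 5 of them on both. Of the 16 other hydroxysteroid dehydrogenases, 3 were rhythmic on high fat diet and 4 on chow. Over all tested genes the shares were 11.0% on high fat diet and 20.6% on chow.

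Hsd3b5 is one of many mouse liver genes with a sex bias, so lists of male-biased and female-biased liver genes were read beside it. Of 15 tested male-biased genes, 8 fell and 3 rose, with a median of -0.26. The fatty acid hydroxylases Cyp4a12a and Cyp4a12b fell by 0.73 ± 0.05 and 0.78 ± 0.05 (SE, limma adjusted p = 5.68e-13 and 1.07e-12), and the glutathione transferase Gstp1 by 0.50 ± 0.07 (adjusted p = 1.54e-06). Of 7 tested female-biased genes, 3 rose and 2 fell, among them Cyp2b13, which rose by 1.56 ± 0.34 (adjusted p = 0.00117), and Cyp3a44, which fell by 2.13 ± 0.11 (adjusted p = 9.59e-15). Some genes stand in more than 1 list. The labels do not give the sex of the animals. Xist, which is made from the inactive X of females, was dim in every sample, at 4.53 to 5.52 on high fat diet and 4.79 to 5.42 on chow, and the Y-linked Eif2s3y stood at 9.13 to 9.49 on high fat diet and 8.87 to 9.47 on chow.

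Markers of other cell types were read as a check on the tissue. Of 9 markers of steroid-making cells of the adrenal gland and gonads, 2 were tested, with neither called by limma nor under an unadjusted p of 0.05, 5 were below the filter and 2 were not analysed here. A summed level here is the log2 of the summed intensities of the markers with a probe set, without the offset of 16. For these markers the summed level was 8.39 to 8.78 on high fat diet and 8.38 to 8.98 on chow. Star, Cyp11a1, Cyp11b1 and Mc2r stayed under 6.11 in every sample. Cyp21a1 reached 6.15 on high fat diet and 6.99 on chow, Nr5a1 lay at 5.93 to 6.55 on high fat diet and 5.90 to 6.45 on chow, and Cyp11b2 lay at 7.20 to 7.65 on high fat diet and 7.06 to 7.79 on chow. Hepatocyte markers were bright on both diets, with a summed level of 15.85 to 16.06 on high fat diet and 15.78 to 16.06 on chow. Of the 7 hepatocyte markers 2 fell (Hnf4a by 0.13 and Tat by 0.18). Of 7 macrophage markers 5 rose, with a median difference of 0.37, and their summed level was 11.40 to 12.62 on high fat diet and 10.75 to 12.22 on chow. Of 6 stellate cell markers 3 rose, and single rises were called for Plin4 (0.68) among 3 tested adipocyte markers and Umod (0.29) among 2 tested kidney markers. The part of macrophages or other cells in the differences of Hsd17b2, Hsd3b5, Hsd11b1 and Akr1c6 was not tested.

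Over the series, log2 levels of arrays of the same group correlated at 0.976 to 0.993 and those of any 2 arrays at 0.964 or more, and array medians lay between 75.7 and 95.6 on the intensity scale. No pair of arrays held identical values. The number of arrays limits the precision of every value given here.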

How the data were processed

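The deposited table holds 1 linear intensity per probe set for 35556 probe sets on 36 arrays. The authors made these intensity values with Affymetrix Expression Console 1.1.1 and PLIER 2.0, per the submitters' processing notes, and no source used here gives the background correction or normalization. Every value column matched 1 sample.

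Gene names came from the platform annotation, which gave 21789 probe sets 1 gene, 1621 several and 12146 none. Symbols were updated by entrez identifier for 99.6% of the first. The deposited intensities were turned into log2(intensity + 16) without further scaling, and genes above the 30th percentile (6.11) were tested. Srd5a1 is not analysed here.

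limma 3.58.1 in R 4.3.3 fitted 1 mean per diet and time, for the average diet difference, the difference at each time and its equality over the 6 times. A second fit with a 24 h cosine and sine per diet tested rhythm and its difference. Each fit used 1 spread per gene, shared by both diets. Calls used a Benjamini-Hochberg adjusted p under 0.05, and the fits were tested on simulated data. Figures and correlations used Python 3.11.15, scipy 1.17.1 and matplotlib 3.10.9.

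The genes described and all gene lists were chosen with earlier results of these data known. From each list of pathway or sex-biased genes the text names up to 4 called genes with the smallest p, or 1 where none was called, besides relatives of the 6 genes and the 3 genes of most similar profile. Others named (Star, Cyp11a1, Cyp11b1, Cyp11b2, Cyp21a1, Mc2r, Nr5a1, Cyp7b1, Ugt2b36, Sult2a8, Cyb5a, H6pd, Akr1d1, Nr3c1, Fkbp5, Per1, Xist and the called cell type markers) were chosen after their values were seen. Alternatives were other scalings, filters, offsets, thresholds and rhythm tests, array weights, the replicate number as a block, and leaving out each sample. Added after the data were seen were leaving out each time, exchanging diet labels within times, the probe sets shared with other genes and the correlations within groups.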

Additional observations from a re-analysis of the deposited data

Results flagged for a closer look

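One result stood out because the diet difference itself differed between times. For Hsd17b2 the limma F test of equal diet differences at the 6 times gave an adjusted p of 0.0470, with differences of -0.58 at ZT4 and -0.78 at ZT12 against 0.10 at ZT20. The adjusted p rose above the threshold after median centring (0.0566), without the filter on dim genes (0.0680), with an offset of 1 (0.0571), with the replicate number as a block (0.0553) and without any of 27 of the 36 samples.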

How the results depend on the processing

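The average fall of Hsd17b2 was called under every alternative run, from -0.33 to -0.28 with single samples left out. Median centring left 2 of the 4 tested genes called (Hsd11b1 0.06, Akr1c6 0.07, Hsd3b5 and Hsd17b2 still called), and over all genes it called 828 of 2755 genes higher, against 1455 of 3167 with quantile normalization and 1571 of 2939 here. Hsd11b1 also lost its call without the filter on dim genes (0.10), and with ZT0 (0.11), ZT4 (0.09), ZT16 (0.09) or ZT20 (0.09) left out. Akr1c6 lost its call with array weights (0.07) and with ZT0 (0.09), ZT12 (0.12) or ZT16 (0.09) left out, and Hsd3b5 with ZT12 left out (-0.51). Without ZT0, ZT12 or ZT16, 2 of 4 genes were called in each case. An adjusted p under 0.01 left 1 of 4, losing Hsd11b1 (0.10), Akr1c6 (0.11) and Hsd3b5 (-0.73).

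Counts among the 4 or 5 genes moved as follows. At ZT12, 1 gene was called in place of 2 without the filter and at 0.01, and at ZT16 array weights called 2. For equality of the difference over the day, 1 gene became 0 with median centring, no filter, an offset of 1, the replicate block or a threshold of 0.01, and 2 with array weights. For rhythm on high fat diet, 2 became 1 by the loss of Cyp17a1 without the filter (0.0634), with an offset of 1 (0.0559), with the replicate block (0.0609) and at 0.01. For rhythm on chow, 2 became 1 by the loss of Akr1c6 at 0.01, with the F test among times and with added 12 h waves.

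Leaving out 1 sample at a time kept the average of Cyp17a1 between 1.47 and 1.63, Hsd3b5 between -0.82 and -0.58, Hsd11b1 between 0.08 and 0.11 and Akr1c6 between 0.10 and 0.13, with 2 to 4 genes called. It left 1 or 2 genes called at ZT12, 0 or 1 for equality over the day, and 1 or 2 for rhythm on each diet. The chow rhythm of Akr1c6 was lost without the second chow sample of ZT8 (0.0588) or the third of ZT20 (0.0635). Exchanging diet labels within times, in 100000 draws, gave permutation p-values of 0.00064 for Hsd17b2, 0.00349 for Hsd11b1, 0.00406 for Hsd3b5 and 0.00562 for Akr1c6. These p-values are not adjusted over the tested genes, unlike the calls above, and the 4 genes were named with earlier results known.

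Of all genes, 1815 had an average difference at 0.01 and 4261 with array weights. Equality over the day failed for 88 genes here, 151 with quantile normalization, 1862 with array weights and 31 at 0.01, and a difference in rhythm was called for 4, 11, 185 and 2 genes in the same order, and for 30 with added 12 h waves. At single times array weights called 1085 genes at ZT4 (522 here), 1716 at ZT8 (108), 1204 at ZT12 (758), 1335 at ZT16 (310) and 821 at ZT20 (285), and median centring 1806 at ZT0 (993) and 191 at ZT16. For rhythm on high fat diet array weights called 2802 genes and the F test among times 2340, against 1539 here. A threshold of 0.01 left 52 to 296 genes at single times, 854 rhythmic on high fat diet and 1710 on chow (2879 here). Deviations of samples with the same replicate number correlated at -0.587 to 0.43 (median -0.00043 over 198 pairs, against -0.0156 over 396 pairs of other numbers), and 17 of 36 samples were closest to their own number, where chance gives 12. Since many pairs did not correlate, the number was not taken to pair samples, and the replicate block changed no average call of the 4 tested genes.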

Other observations

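The following values were picked after they were seen. The 2 livers with the lowest Hsd3b5 of all samples, the first high fat sample of ZT0 (8.90) and the first of ZT4 (8.82), had the 2 highest log2 levels of Cyp2b9 of all samples, at 12.82 and 12.35. The other high fat samples of ZT0 had Cyp2b9 at 8.45 and 6.59, with Hsd3b5 at 11.58 and 11.83. The other high fat samples of ZT4 had Cyp2b9 at 10.81 and 10.93, with Hsd3b5 at 11.67 and 11.45. At ZT8 on high fat diet Cyp2b9 stood at 8.02, 5.84 and 7.90, with Hsd3b5 in the same samples at 11.95, 12.25 and 11.24. At ZT12 Cyp2b9 stood at 11.87, 11.79 and 11.31, with Hsd3b5 at 10.18, 9.77 and 9.53. At ZT16 Cyp2b9 stood at 11.36, 11.35 and 10.26, with Hsd3b5 at 11.05, 9.67 and 10.90. At ZT20 Cyp2b9 stood at 9.65, 8.35 and 10.22, with Hsd3b5 at 11.71, 11.67 and 11.00. Higher Cyp2b9 thus went with lower Hsd3b5 within the high fat groups of ZT0 and ZT4. Within ZT12 the 2 genes ran in the same order. At ZT8, ZT16 and ZT20 the opposite order did not hold for all samples. On chow Cyp2b9 lay between 4.50 and 8.01 and Hsd3b5 between 10.79 and 11.97. Cyp17a1 in the 2 livers of lowest Hsd3b5 was 9.99 and 10.58, the highest of their groups.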
